A study of Mus musculus with 6 samples.

Results

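Vascular smooth muscle cells (VSMC) of the mouse sciatic nerve were taken from whole-nerve single-cell libraries of postnatal day 1 (P1) and postnatal day 60 (P60). A barcode with 500 to 5000 detected genes was counted as a VSMC where it held at least 2 unique molecular identifiers (UMIs, each standing for 1 captured RNA molecule) of Myh11, at least 10 of Acta2, at most 1 of Pecam1 and Cldn5 together, none of Ptprc or Sox10 and fewer than 10 of Dcn. Measured counts of these genes chose the cells, so their levels are given as a description and were not tested. By this gate 625 of 24337 barcodes were VSMC, namely 116 of 11735 at P1 (38, 35 and 43 in replicates 1 to 3) and 509 of 12602 at P60 (105, 119 and 285). Pericytes, the nearest class, were gated with at least 3 UMIs of Rgs5, Kcnj8 and Abcc9 together, at most 1 of Myh11 and Pln together and the same limits on the other genes (the further exclusions), which gave 476 cells at P1 and 230 at P60.

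Each age had 3 independent samples, and each of these pooled cells of male and female mice in equal parts. All mice of both ages carried the P0Cre-/+: ReYFP Tg/+: βAct-DsRed Tg/+ genotype on a C57bl/6J background, so that DsRed marked nerve cells in general and eYFP the Schwann cells in which P0Cre had acted. DsRed-positive cells were sorted after enzymatic digestion, and only at P1 were some of the cells positive for both DsRed and eYFP sorted out. Age therefore cannot be told apart from the sort and from the day of each library, for which the labels give no batch. Fewer captured cells of a type and less efficient release of that type from the tissue likewise cannot be told apart.

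VSMC wrap arteries and arterioles and set their diameter. Their contraction runs on smooth muscle myosin and actin filaments, is started by calcium that enters through channels or leaves the sarcoplasmic reticulum, and is damped by calcium-activated potassium channels and cyclic GMP. During vessel maturation such cells lay down elastic fibres, leave the cell cycle and add to their contractile apparatus. Pericytes sit on capillaries. The paper describes vessels in every compartment of the nerve, with the larger ones mainly in the epineurium. These whole-nerve libraries do not give the compartment of a VSMC or pericyte.

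The VSMC of the 6 libraries held 213765, 204389 and 266471 UMIs at P1 and 452775, 433091 and 1167426 at P60, with a median of 5665 and 3894 UMIs per cell at the respective ages. No VSMC barcode was shared between libraries. P60 replicate 3 stood apart, with 6.22% of its kept barcodes in the gate against 3.06% and 2.59% in the other P60 replicates, with 36.1% of its VSMC above 10% mitochondrial UMIs against 11.4% and 16.8%, and with a Pearson correlation to them of 0.921 and 0.926 across the tested genes (log2 CPM) while those 2 correlated at 0.957. No P1 VSMC exceeded 10% mitochondrial UMIs. Of the markers of other cells, the summed immune list (5 of 5 genes with a UMI at P60) stood at 14, 24.5 and 11.3 counts per 1000000 UMIs (CPM) at P1 and 86.1, 418 and 268 at P60. The summed Schwann list fell from between 284 and 342 CPM at P1 to between 47.1 and 79.5 at P60 (Cdh19 at 0 at P1, Erbb3 at 0 at P60). The endothelial list stayed between 18.7 and 58.7 CPM in all 6 libraries (Cdh5 at 0 at P1), and the fibroblast list between 1122 and 2490 (Dpt at 0 at P1). Levels in CPM below are those of all VSMC of a library summed.

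At both ages the label held against Tagln, a marker that the gate did not use. The other class markers outside the VSMC gate, Pln and Actg2, marked different ages, as given below. Tagln (ENSMUSG00000032085; GRCm38 chromosome 9, 45929619 to 45936058, minus strand), which encodes the actin-binding protein transgelin, stood at 8645, 7417 and 8128 CPM in the P1 replicates and 7198, 7285 and 10438 CPM in the P60 replicates. Both ages overlapped, and pericytes held far less, at 418, 462 and 514 CPM at P1 and 913, 1083 and 1234 CPM at P60. The age difference of Tagln was not called by edgeR's quasi-likelihood test (log2 fold change 0.20 ± 0.18 (SE), adjusted p = 0.46). After each cell was thinned to 1500 UMIs, 94.8% of P1 and 98.2% of P60 VSMC had a Tagln UMI, against 20.6% and 52.9% of pericytes and 0.215% and 5.12% of immune cells. The gate genes themselves had per-cell medians of 76 (P1) and 56 (P60) UMIs for Acta2 and of 5 and 8 UMIs for Myh11.

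Pln and Actg2, the remaining markers of the class, marked different ages. Pln (ENSMUSG00000038583; GRCm38 chromosome 10, 53337667 to 53345987, plus strand) encodes phospholamban, the inhibitor of the calcium pump of the sarcoplasmic reticulum. It stood at 4.68, 0 and 7.51 CPM at P1 and 751, 651 and 629.6 CPM at P60, or 3 against 1357 UMIs in all. Every P60 library lay above every P1 library, and the ratio of the pooled levels was 151 (exact 95% interval 51.5 to 732, counting error only; adjusted p = 1.8e-09 by edgeR's quasi-likelihood test). In thinned cells a Pln UMI was seen in 0 of 116 VSMC at P1 (3 cells would be 2.59%, a limit on cells with a UMI at this depth and not on cells that express the gene), or in 2 of 116 without thinning. At P60 the thinned share was 46.9%, against 0.753% of P60 immune cells. Pericytes had none at either age, but Pln is one of the genes of their gate.

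Actg2 (ENSMUSG00000059430; GRCm38 chromosome 6, 83512905 to 83536265, minus strand) encodes the gamma smooth muscle actin that is the main actin of visceral muscle. It stood at 1375, 1257 and 1081 CPM at P1 and 19.9, 69.3 and 90.8 CPM at P60, so all P1 libraries lay far above all P60 libraries (log2 fold change -4.08 ± 0.44 (SE), adjusted p = 6.6e-04, edgeR's quasi-likelihood test). The share of thinned VSMC with an Actg2 UMI was 56.0% at P1 and 6.71% at P60, against 2.73% and 0.881% of pericytes and at most 0.151% of immune cells. At P60 the 145 Actg2 UMIs lay in 54 of 509 VSMC without thinning. The 10% of VSMC with most of them held 97.2%, which follows largely from so few cells with a UMI and does not set a group of cells apart.

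**Figure D1:**
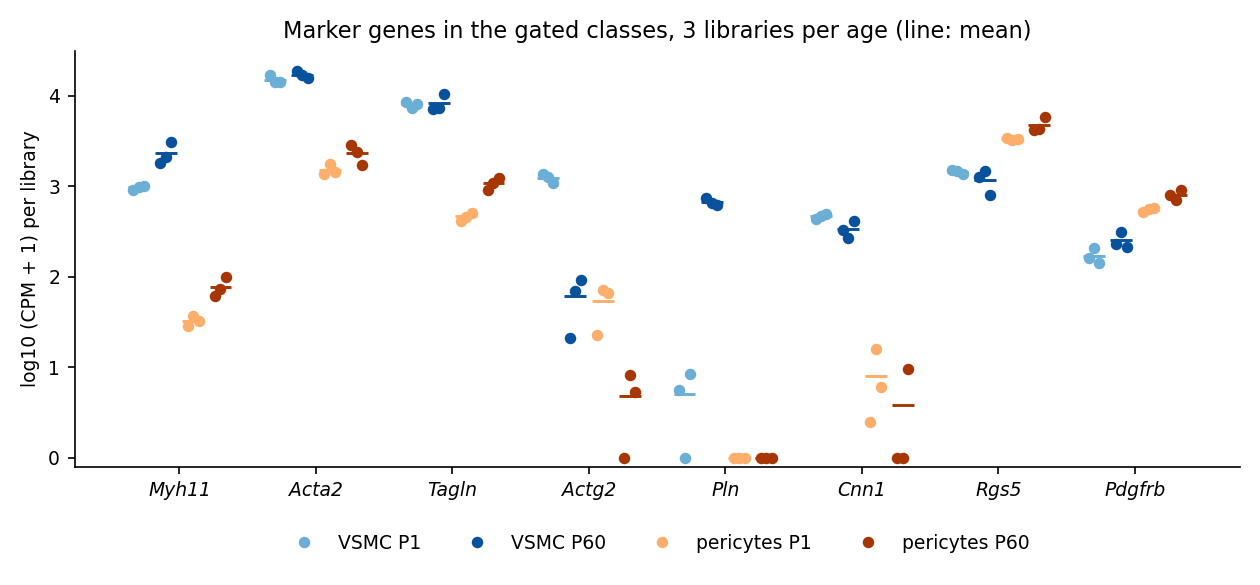
Levels of 8 marker genes as log10 (CPM + 1) in the summed VSMC and pericytes of each library (points) with the mean (line), at P1 and P60. Pln is near 0 in P1 VSMC and between 629.6 and 751 CPM at P60, Actg2 moves the other way, and Tagln stands above pericytes at both ages; Myh11, Acta2, Pln and Rgs5 are genes of the gates.

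Members near the limits of the gate were less like the rest. The 23 P1 cells with exactly 2 Myh11 UMIs held 3581 CPM of Tagln against 2478 CPM in the 41 cells with 1 UMI, and at P60 the 52 and 39 such cells held 4731 and 3750 CPM, whereas all members held 8077 CPM at P1 and 9058 CPM at P60. At the Acta2 limit, the 37 P60 cells with 10 to 14 UMIs held 2833 CPM of Tagln and the 23 with 5 to 9 held 1815 CPM. The limit on Pecam1 and Cldn5 alone left out 37 cells at P60 and 1 at P1, and the limit on Dcn alone 21 and 8.

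Many VSMC also held transcripts of the pericyte gate. At P1 75 of 116 VSMC had at least 3 UMIs of Rgs5, Kcnj8 and Abcc9 together, and at P60 139 of 509 had. In the P1 replicates those cells held 7756, 4519 and 6341 CPM of Tagln, against 11421, 12288 and 11428 CPM in the VSMC below 3. Cnn1, which encodes the thin-filament protein calponin, was at 333, 179 and 347 CPM in the former and 733, 970.4 and 769 CPM in the latter, and Actg2 at 957, 796 and 798 against 2682, 2033 and 1602 CPM. At P60 the same split gave 338, 227 and 198 against 913, 885 and 764 CPM of Pln. In all of these the VSMC with pericyte transcripts were the lower ones in each library, without overlap. Cnn1 at P60 was at 31.4, 45.4 and 579.6 CPM against 446, 394 and 365 CPM, and Actg2 at 7.85, 51.9 and 187 against 24.6, 78.9 and 60.7 CPM, so that in P60 replicate 3 the order was turned for both. These values are a description with no test, and how far 2 cells under 1 barcode take part in them was not tested.

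The share of VSMC among gated mural cells (VSMC and pericytes together) was 22, 17.1 and 20.1% in the P1 libraries and 63.6, 56.1 and 78.7% in the P60 libraries. All P60 libraries stood above all P1 libraries, with means of 19.7 ± 2.47% and 66.2 ± 11.5% (SD, n = 3) and a difference of 46.5 percentage points (p = 0.1, exact permutation test, 2-sided, the smallest p that 3 against 3 libraries allow). The shares themselves depended on the pericyte gate. Without the further exclusions in that gate the means were 7.72 ± 0.922% at P1 and 43.7 ± 16.9% at P60 (SD). VSMC with a UMI of the proliferation genes Mki67 or Top2a, after thinning, made up 0, 8.57 and 14% of the P1 libraries (9 of 116 cells). At P60 there were 0 of 507 (3 cells would be 0.592%, a limit on cells with a UMI at this depth), or 3 of 509 without thinning. The P1 and P60 libraries touched at 0 (p = 0.4, exact permutation test), and without thinning the mean shares were 16.4% and 0.551%, without overlap (p = 0.1). All of the 9 cells were among those rich in pericyte transcripts, and P1 pericytes carried such a UMI in 5.88% of cells and P1 immune cells in 13.5%.

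**Figure D2:**
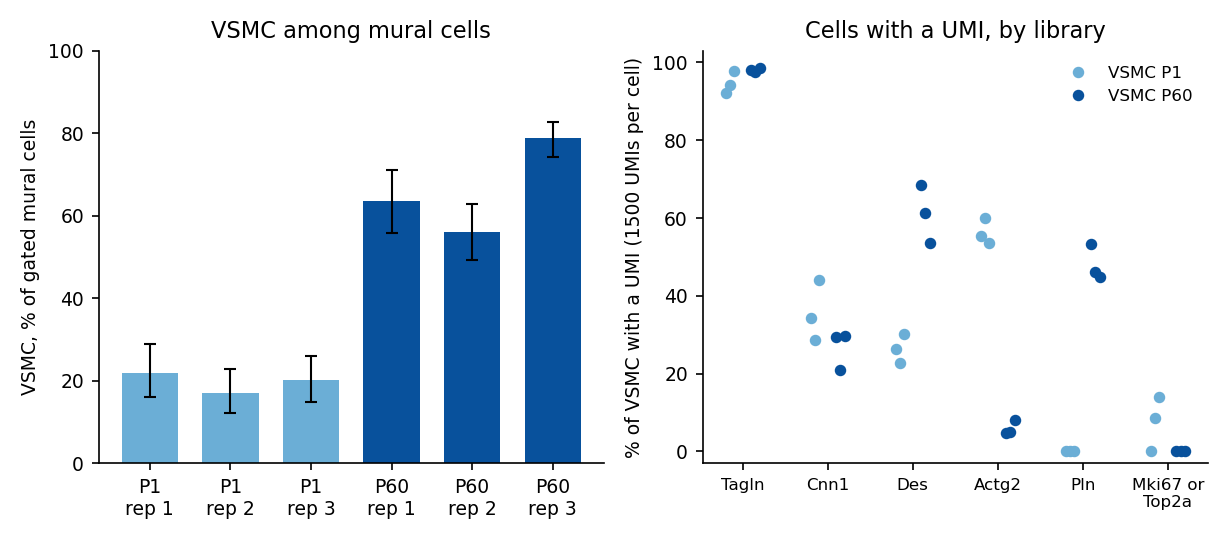
Left, VSMC as a percentage of gated mural cells in each library, with exact 95% intervals that cover counting error only: 17.1 to 22% at P1 and 56.1 to 78.7% at P60. Right, percentage of VSMC with a UMI after thinning to 1500 UMIs, 1 point per library: Tagln stays above 90%, Actg2 is high at P1, Pln and Des are high at P60, and Mki67 or Top2a is absent at P60.

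Between the ages, 4598 genes were tested over the 6 summed VSMC libraries by edgeR's quasi-likelihood test, and 1336 of them (29.1%) were called at an adjusted p of 0.05, 716 higher (15.6%) and 620 lower (13.5%) at P60. Log2 fold changes below are P60 minus P1 after TMM scaling, which sets the bulk of genes to no change. With scaling to total counts the median of all genes moved by -0.15 and the calls became 569 higher and 817 lower. The CPM of 44.3% of all tested genes did not overlap between the ages. List counts between the ages given below are to be read beside these shares.

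The contractile and cytoskeletal genes were on balance higher at P60. Of 35 listed genes 33 were tested, 17 were higher, 4 were lower and 12 were not called, with a median log2 fold change of 0.78 against 0.01 over all tested genes, and the counts were the same with total-count scaling. The member with most UMIs among those that rose was Myl6, the essential myosin light chain, at 5151, 4756 and 4781 CPM in the P1 libraries and 9850.4, 9189.8 and 8278 CPM in the P60 libraries. It was higher in all P60 libraries (log2 fold change 1.03 ± 0.11 (SE), adjusted p = 6.0e-06). Tpm2, the beta-tropomyosin of the thin filament, stood at 4318, 3939 and 3933 CPM and then 8013, 7222 and 7276 CPM, also without overlap (1.02 ± 0.11 (SE), adjusted p = 1.0e-05). By contrast, Myl9, the regulatory light chain, stood at 8514, 6967 and 6695 CPM at P1 and 8976, 8416 and 5951 CPM at P60. These ranges overlapped, as did those of Cald1 (caldesmon), at 2395, 2681 and 2732 and 2072, 2348 and 2563 CPM, and neither gene was called (0.19 and -0.01, adjusted p = 0.3 and 0.97, edgeR). Without P60 replicate 3 Myl9 was called higher (0.32, adjusted p = 0.013).

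Genes of the dense body, the Z-disc-like anchor of the actin filaments, and of the intermediate filament were among those that rose. Smtn (smoothelin) was at 112, 88.1 and 63.8 CPM at P1 and 285, 312 and 359 CPM at P60 and Des (desmin) at 281, 279 and 334 and 996, 1011 and 715 CPM. Both were higher in all P60 libraries (2.03 ± 0.24 and 1.72 ± 0.15 on the log2 scale). Ldb3, a PDZ-LIM protein of the Z-disc, was at 23.4, 9.79 and 11.3 CPM and then 59.6, 76.2 and 100.2 CPM (2.60 ± 0.44 (SE), adjusted p = 4.3e-04). Pdlim3 (2.12 ± 0.21), Synpo2 (2.52 ± 0.31), Sorbs2 (2.48 ± 0.42), the myosin phosphatase subunit Ppp1r12b (2.41 ± 0.34) and the actin cross-linker Flna (1.78 ± 0.29) rose as well, with adjusted p between 3.6e-06 and 0.0048 by edgeR's test. Beside Actg2, the 3 members that fell were Tpm4, a cytoskeletal tropomyosin (669, 797 and 582 CPM at P1, 181, 296 and 145 CPM at P60, -1.62 ± 0.22), Vim, the mesenchymal intermediate filament vimentin (-0.88 ± 0.12), and Pdlim7 (-0.56 ± 0.18). The call of Pdlim7 was lost without P1 replicate 1 (-0.41, adjusted p = 0.18), P1 replicate 2 (-0.59, 0.073), P60 replicate 1 (-0.50, 0.091) or P60 replicate 2 (-0.52, 0.078), by edgeR. Desmin and vimentin thus moved in opposite directions.

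Myl7, the atrial form of the regulatory light chain, is not on that list. It stood at 93.6, 73.4 and 56.3 CPM at P1, or 50 UMIs in all, and at 0 in all P60 libraries. It was therefore at least 50-fold lower at P60 (floor of 3 UMIs over the group; adjusted p = 6.5e-06, edgeR), and pericytes had none at either age.

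The CArG box, the site of serum response factor that smooth muscle promoters are known for, was searched as CC, 6 bases of A or T and GG in the 250 bases before the RefSeq start of each gene. It was held by 439 of 27025 promoters (1.62%), by 72 of 3591 genes tested between the ages (2.01%), and by 5 of 29 contractile genes with an entry (17.2%), namely Myl9, Myl6, Ldb3, Vcl and Filip1l. The motif is its own reverse complement, so both strands were covered, and a match is a description of the letters only. It was found among genes that moved in different ways: in Myl9, which was not called, in Ldb3 and Asb2 (a muscle ubiquitin-ligase subunit), which were high at P60, and in Myl7. To show this, 100 bases of each window are given from 5′ to 3′ on the strand of the gene, with the motif in capitals and its distance before the start site in the sentence that follows.
Myl9 (GRCm38.p6, chr2:156775258-156775357, plus strand): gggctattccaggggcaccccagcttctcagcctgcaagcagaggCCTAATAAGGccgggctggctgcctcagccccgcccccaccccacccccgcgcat
Ldb3 (GRCm38.p6, chr14:34588662-34588761, minus strand): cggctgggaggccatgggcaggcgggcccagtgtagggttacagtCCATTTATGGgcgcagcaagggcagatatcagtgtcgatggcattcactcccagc
Asb2 (GRCm38.p6, chr12:103356011-103356110, minus strand): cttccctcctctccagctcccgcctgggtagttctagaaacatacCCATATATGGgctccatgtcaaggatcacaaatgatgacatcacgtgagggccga
Myl7 (GRCm38.p6, chr11:5898789-5898888, minus strand): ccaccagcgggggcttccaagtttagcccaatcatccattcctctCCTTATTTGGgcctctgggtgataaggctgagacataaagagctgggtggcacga
The first base of the motif lay 161 bases before the start in Myl9, 64 in Asb2 and 61 in Myl7. Ldb3 has a pair of listed starts, and the motif lay 109 bases before one and 35 before the other, so that the end of the printed window lies past the latter. Acta2 and Pln had no exact match in this window, and Myh11, Tagln and Actg2 had no entry. Boxes that depart from the exact pattern were not searched, so no match does not mean no such site.

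Most of the tested calcium handling and ion channel genes rose. Of 28 listed genes 19 were tested, 15 were higher, none was lower and 4 were not called, with a median log2 fold change of 1.59 (14 higher with total-count scaling). Kcnmb1, the beta subunit of the large-conductance calcium-activated potassium channel, stood at 14, 4.89 and 7.51 CPM at P1 and 86.1, 80.8 and 92.5 CPM at P60. Its pore subunit Kcnma1 was at 0, 4.89 and 11.3 and 33.1, 36.9 and 47.1 CPM. Both were higher in every P60 library than in any P1 library (3.42 ± 0.42 and 2.90 ± 0.59, adjusted p = 2.9e-05 and 0.0018, edgeR). The calcium pump Atp2a2, which phospholamban inhibits, was at 122, 171 and 139 CPM and then 280.5, 254 and 361 CPM (1.23 ± 0.22 (SE), adjusted p = 8.1e-04). Thus Pln and the pump both rose, but the pump by 2.34-fold and Pln from almost no UMIs. The calcium pump of the cell membrane Atp2b4 (1.66 ± 0.32), calsequestrin Casq2 (1.34 ± 0.30), the inositol trisphosphate receptor Itpr1 (1.96 ± 0.35) and the voltage-gated channel Kcna5 (1.17 ± 0.27) rose too, with adjusted p between 8.5e-04 and 0.004 by edgeR.

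Vasoactive receptors and cyclic GMP genes were mostly not called. Of 41 listed genes 19 were tested, 7 were higher, 1 was lower and 11 were not called, with a median of 0.13. Over all tested genes 15.6% were higher and 13.5% were lower. Rgs4, a brake on G-protein signalling, was at 51.5, 122 and 52.5 CPM at P1 and 625, 591 and 465 CPM at P60, with all P60 libraries above (3.04 ± 0.25 (SE), adjusted p = 1.3e-06). Npy1r, the neuropeptide Y receptor, was at 136, 83.2 and 105 and 292, 293 and 486 CPM, again without overlap (1.91 ± 0.30 (SE), adjusted p = 6.0e-04). The cyclic GMP phosphodiesterase Pde5a rose as well (1.34 ± 0.30, adjusted p = 0.0032, edgeR). The receptors for endothelin (Ednra, -0.23 ± 0.21) and extracellular ATP (P2rx1, -0.37 ± 0.33) and the receptor partner Ramp1 (0.03 ± 0.17) were not called, nor was Rgs5, at 1520.4, 1468 and 1358 CPM and 1266, 1499 and 810.3 CPM (-0.17 ± 0.16). Other choices of VSMC gave lower values at P60 for P2rx1, at -1.34 without those rich in pericyte transcripts (adjusted p = 0.032, edgeR), and for Ednra, at -0.73 with the stricter gate (0.029).

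**Figure D3:**
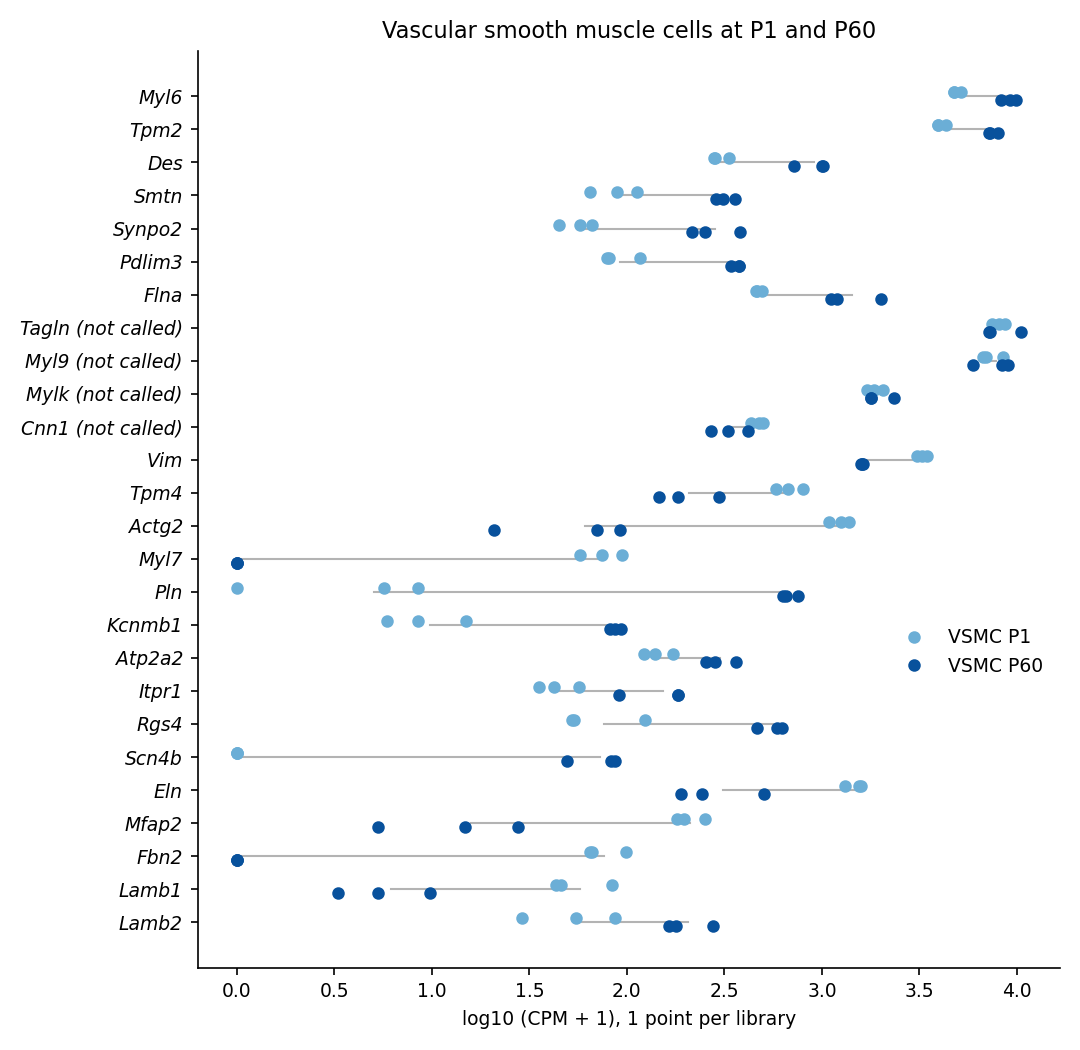
Levels of 26 genes as log10 (CPM + 1) in the summed VSMC of each library at P1 and P60 (points), with a grey line joining the means; genes not called are marked. Pln, Kcnmb1 and Scn4b move up and Actg2, Myl7, Mfap2, Fbn2 and Lamb1 move down by the largest amounts, while Tagln, Myl9, Mylk and Cnn1 lie together.

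Of 51 listed matrix genes 37 were tested, 6 were higher, 12 were lower and 19 were not called, with a median of -0.05 (5 higher and 15 lower with total-count scaling). The 6 that were higher made up a share close to the 15.6% of all tested genes. The 12 that were lower made up a larger share than the 13.5% of all tested genes. Some elastic fibre genes were among those that fell. Eln (tropoelastin) was at 1591, 1316 and 1554 CPM at P1 and 188, 242 and 502 CPM at P60, so the ages did not overlap, though P60 replicate 3 was the highest of its age (-2.03 ± 0.42 (SE), adjusted p = 0.014). Without P1 replicate 1 the value was -2.0 with an adjusted p of 0.065. The microfibril gene Mfap2 was at 196, 249.5 and 180.1 and 26.5, 13.9 and 4.28 CPM (-3.90 ± 0.41 (SE), adjusted p = 1.2e-05). Fbn2, the fibrillin of early microfibrils, was at 65.5, 63.6 and 97.6 CPM and then at 0 in all P60 libraries, at least 53.0-fold lower, and it was at 0 in P60 pericytes too. The collagen genes Col1a1 (-2.54 ± 0.31) and Col3a1 (-1.40 ± 0.22) and the laminin chain Lamb1 (-3.27 ± 0.49) fell with them. Lamb2, another laminin beta chain of vascular basement membranes, went the other way, from 28.1, 53.8 and 86.3 to 177, 164 and 274 CPM (2.02 ± 0.37 (SE), adjusted p = 0.0016), as did Sparcl1 (0.96 ± 0.16), whereas its relative Sparc fell (-0.81 ± 0.18). Levels of Col1a1 and Col3a1 are also carried by fibroblasts. Both genes are members of the summed fibroblast list above, so the overlap of that sum between the ages is no separate measure of fibroblast RNA. The part of free fibroblast RNA in these 2 falls was not tested.

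Among transcription factors 11 of 30 tested (51 listed) were higher, 5 were lower and 14 were not called (median 0.54). Beside 15.6% higher and 13.5% lower over all tested genes, the share of these factors that was lower was close to the background. Foxc1, a forkhead factor of mural cell development, was at 9.36, 9.79 and 18.8 CPM at P1 and 83.9, 80.8 and 182 CPM at P60 (3.35 ± 0.55 (SE), adjusted p = 6.5e-04). The Notch target Hes1 was at 571, 616 and 492 and 1659, 1418 and 1890.5 CPM (1.72 ± 0.17 (SE), adjusted p = 3.6e-06) and the muscle-enriched Mustn1 at 1749.6, 1497 and 1554 and 3521, 2750.0 and 2563 CPM (1.01 ± 0.13 (SE), adjusted p = 3.4e-05). In all of them every P60 library stood above every P1 library. The flow-responsive factor Klf2 (1.79 ± 0.25) and Srf itself (2.15 ± 0.52, from 4.68, 4.89 and 18.8 to 39.8, 30.02 and 48.8 CPM) also rose. Sox4, a factor of progenitor cells, fell from 225, 279 and 345 CPM to 33.1, 30.02 and 23.1 CPM (-3.19 ± 0.24 (SE), adjusted p = 4.9e-07), and Mef2c (-0.59 ± 0.14) fell as well. Myocd, the coactivator of Srf, was too low to be tested, at 9.36, 19.6 and 15 CPM and 13.3, 20.8 and 68.5 CPM.

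Of the Notch, PDGF and TGF-beta list 8 of 26 tested genes (50 listed) were higher, 3 were lower and 15 were not called (median 0.31). The lower share was close to the 13.5% of all tested genes, and the higher share stood above their 15.6%. The growth factors Fgf1 (1.73 ± 0.34) and Ntf3 (1.60 ± 0.28) and the ligand Tgfb3 (1.72 ± 0.28) rose, and the heparin-binding growth factor Mdk fell from 122, 201 and 101 to 13.3, 4.62 and 0.857 CPM (-4.67 ± 0.55 (SE), adjusted p = 3.1e-05). The list of pericyte markers had 3 of 7 tested genes higher, Cspg4 (2.5 ± 0.41), Pdgfrb (0.72 ± 0.20) and Notch3 (0.65 ± 0.18), but only 1 with total-count scaling, and the call of Pdgfrb was lost without P1 replicate 1 (0.68, adjusted p = 0.07), P1 replicate 3 (0.58, 0.13) or P60 replicate 2 (0.60, 0.054), and that of Notch3 without P1 replicate 2 (0.60, 0.069) or 3 (0.60, 0.081), by edgeR. Without VSMC rich in pericyte transcripts Notch3 was at 0.34 (0.32), and with the stricter gate at 0.49 (0.1).

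All 11 tested cell cycle genes (24 listed) were lower, with a median of -2.28. Stmn1, a microtubule regulator of dividing cells, was at 219.9, 455 and 413 CPM and then 19.9, 18.5 and 9.42 CPM (-4.48 ± 0.33 (SE), adjusted p = 4.9e-07). Cdk1, the mitotic kinase, was counted 54 times in P1 VSMC but 2 times in those of P60, so the levels stood in a ratio of 81.0 (exact 95% interval 21.4 to 686), and Rrm2, a subunit of ribonucleotide reductase, a ratio of 66.0 (17.2 to 562). Of the imprinted growth genes 6 of 11 tested (20 listed) were lower and none was higher, with a median of -1.71. H19, a non-coding RNA of fetal tissue, was at 632, 719 and 642 CPM and then 13.3, 4.62 and 2.57 CPM (-6.67 ± 0.31 (SE), adjusted p = 1.8e-09). Dlk1, a non-canonical Notch ligand, was at 968, 959 and 1145 and 35.3, 50.8 and 7.71 CPM (-5.16 ± 0.44 (SE), adjusted p = 8.8e-05), and Gnas, which encodes the stimulatory G-protein alpha subunit, at 4968, 4785 and 4635 and 1420.1, 1254 and 879 CPM (-1.90 ± 0.13 (SE), adjusted p = 2.3e-07). No P1 library overlapped a P60 library in any of these. Pericytes had 628, 574 and 714 CPM of H19 at P1 and 15, 14.4 and 0 CPM at P60.

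**Figure D4:**
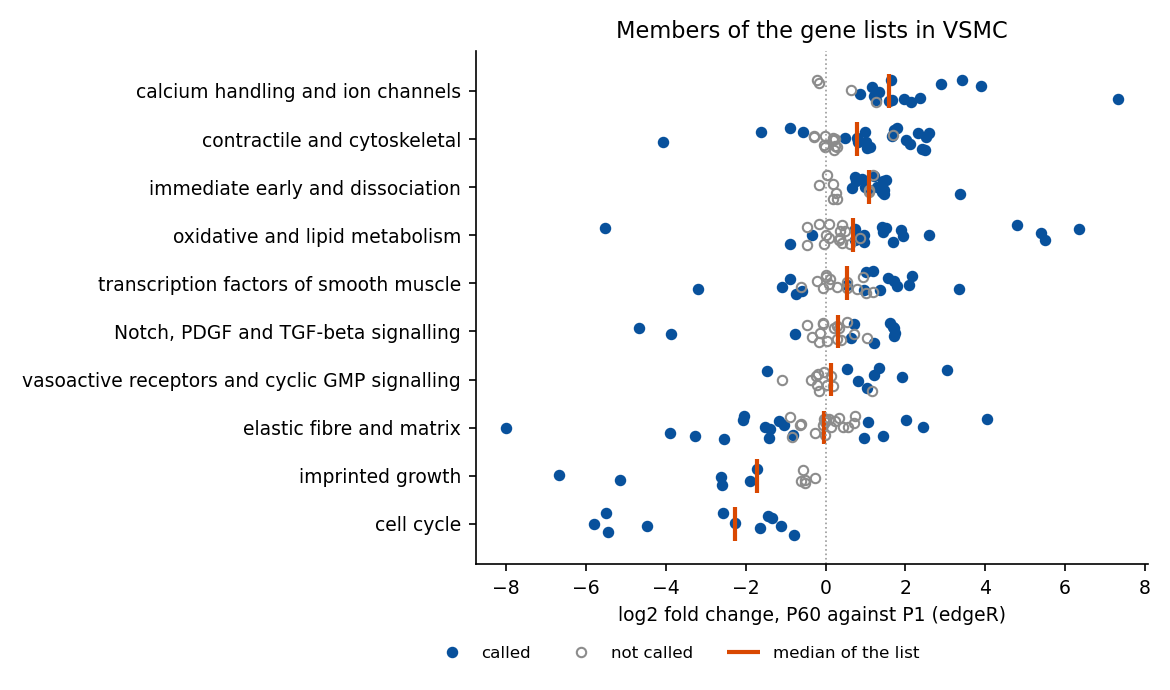
Log2 fold change of each tested member of 10 gene lists, P60 minus P1, in VSMC (filled, called; open, not called), with the list median as an orange bar. The medians run from -2.28 for the cell cycle to 1.59 for calcium handling and ion channels, against 0.01 for all tested genes.

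Immediate early and dissociation genes were higher at P60 in 14 of 23 tested members (28 listed), with none lower and a median of 1.09. The stress factor Atf3 was at 37.4, 53.8 and 86.3 CPM at P1 and 379.9, 402 and 857 CPM at P60, without overlap and with P60 replicate 3 highest (3.37 ± 0.54 (SE), adjusted p = 0.0042). Fos (0.77 ± 0.17), Junb (1.10 ± 0.14), Btg2 (1.44 ± 0.19) and Socs3 (1.46 ± 0.32) rose, whereas Jun (0.19 ± 0.14) and Ier2 (0.29 ± 0.18) were not called. Median mitochondrial shares of VSMC moved with this list, from between 3.47 and 3.88% in the P1 libraries to 6.24, 6.42 and 7.94% in the P60 libraries, while P60 pericytes had 3.88 to 4.84%. Without VSMC above 10% mitochondrial UMIs the values of Atf3, Fos and Junb were 3.40, 0.77 and 1.09 (adjusted p = 0.02, 0.0079 and 4.1e-06, edgeR).

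Among MHC class I and interferon genes 6 of 11 tested (25 listed) were higher and 1 was lower, beside 15.6% and 13.5% of all tested genes. H2-D1 was at 14, 34.2 and 30.02 CPM and then 170.1, 178 and 139.6 CPM (2.74 ± 0.30 (SE), adjusted p = 9.4e-06) and H2-K1 at 9.36, 0 and 11.3 and 83.9, 125 and 66.0 CPM (3.70 ± 0.52 (SE), adjusted p = 9.1e-05), both antigen-presenting heavy chains. Bst2 (tetherin) fell from 281, 245 and 191 to 77.3, 69.3 and 53.1 CPM (-1.73 ± 0.22 (SE), adjusted p = 4.5e-05). No library of one age reached the other age in these 3 genes. The summed immune markers were higher at P60 as well, and without cells that held a UMI of any immune gene of a short list the values of H2-D1 and H2-K1 were 2.56 and 4.20 (adjusted p = 4.3e-05 and 7.5e-05, edgeR).

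The largest rises at P60 were mostly in genes that were near 0 at P1. The prominent ones with a high level in another class were Retnla (0 at P1, 115, 314 and 123 CPM at P60, at least 36.9-fold higher, 1% of its level in immune cells), the MHC class II genes H2-Ab1 and H2-Aa (at least 13.9- and 12.8-fold) with Cd74 (ratio 102, 18.1 to 4030), and Sfrp5 (at least 17.2-fold, 2% of the fibroblast level). The summed immune markers rose in the same libraries, as given above, and the part of RNA from such cells was not tested. The calls of Retnla, H2-Ab1 and Cd74 were lost without P60 replicate 3 (log2 fold changes 9.11, 7.95 and 6.84, adjusted p = 0.18, 0.14 and 0.13, edgeR), that of H2-Ab1 also without P1 replicate 1 (0.052) or 3 (0.056), that of H2-Aa without P1 replicate 3 (0.05, just above the threshold), and that of Cd74 without any single P1 replicate (0.18, 0.084 and 0.1).

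Rises of another kind were Scn4b, a sodium channel beta subunit (0 at P1, 81.7, 48.5 and 85.7 CPM at P60, at least 17.6-fold), Sod3, the extracellular superoxide dismutase (ratio 86.7, 15.4 to 3437), Timp4, a metalloproteinase inhibitor (9.36, 4.89 and 3.75 CPM at P1, 170.1, 236 and 328 at P60, 5.50 ± 0.48), and the nuclear RNA Neat1 (4.68, 29.4 and 11.3 CPM at P1, 557, 393 and 923 at P60, 5.57 ± 0.64). At the other end, beside Fbn2, Myl7, H19, Cdk1 and Rrm2, stood the replication genes Hist1h2ap (at least 57.0-fold lower), Tk1 (ratio 171, 29.5 to 6869) and Pclaf (-5.45 ± 0.61), Lgi1 (ratio 121, 32.6 to 1020), Ddah1, which degrades an inhibitor of nitric oxide synthase (ratio 111, 18.7 to 4500), the secreted glycoprotein Reln (ratio 63.0, 16.4 to 537) and the fatty acid-binding protein Fabp5, which fell from 945, 1042 and 991 to 30.9, 23.1 and 11.1 CPM (-5.52 ± 0.24).

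VSMC were then set against pericytes within each library, in 1 fit of 12 sums with the library as a block. Both classes were chosen by contractile or pericyte genes, so these calls describe what goes with the gates and are no independent evidence for the classes. At P1 934 of 5964 tested genes (15.7%) were called, 519 higher (8.70%) and 415 lower (6.96%) in VSMC. At P60 1571 (26.3%) were called, 894 higher (15%) and 677 lower (11.4%). With total-count scaling the splits became 420 and 555 at P1 and 572 and 1525 at P60. All 3 libraries moved the same way in 46.9% of tested genes at P1 and in 58.1% at P60. List counts between the classes given below are to be read beside the shares called at each age.

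At P1 the contractile list had 29 of 35 tested genes higher in VSMC and none lower (median 1.73), and at P60 32 higher and 2 lower (median 2.18). Cnn1 separated the classes most among its members at P1, with 430.4, 475 and 495 CPM in VSMC and 1.47, 14.8 and 5.0 CPM in pericytes of the same libraries (6.08 ± 0.27 (SE), adjusted p = 1.4e-17), and at P60 with 329, 270.2 and 416 and 0, 0 and 8.54 CPM (7.07 ± 0.42 (SE), adjusted p = 1.3e-14). VSMC were higher in all 6 libraries. P2rx1, the ATP-gated channel that answers sympathetic nerves, was at 122, 68.5 and 60.04 CPM and 42.0, 69.3 and 59.96 CPM in VSMC and at 0 in all pericyte libraries, at least 60.7-fold higher at P1 and 13.7-fold at P60. Neither gate had used it. Other P1 genes higher in VSMC were the secreted protein Crispld2 (ratio 78.1, 25.7 to 387), Ramp1 (4.55 ± 0.24), Fbxl22 (5.54 ± 0.25), Rergl (4.82 ± 0.27), Mrgprf (4.5 ± 0.39), the activin subunit Inhba (4.5 ± 0.37) and Eln (4.35 ± 0.23). With the pericyte gate without the further exclusions Eln was at 1.0 and not called (adjusted p = 0.14, edgeR). Actg2 was higher by 4.63 ± 0.28 at P1 and 4.12 ± 0.88 at P60, but the P60 call was lost without P60 replicate 2 (4.86, adjusted p = 0.063) or 3 (3.72, 0.13).

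At P60 the genes with the largest excess over pericytes were at 0 in pericytes. Asb2 was at 183, 148 and 139.6 CPM in VSMC (at least 35.8-fold), Sh3bgr at 148, 148 and 142 CPM (at least 34.3-fold), Lrrc10b at 108, 55.4 and 132 CPM (at least 26.2-fold) and Ldb3 at 59.6, 76.2 and 100.2 CPM (at least 20.4-fold). Tcap, a Z-disc cap protein of striated muscle, was at least 18.9-fold higher, Grip2 at least 20.7-fold, Susd5 at least 23.7-fold, Tnmd (tenomodulin) at least 14.1-fold and Atcayos at least 16.8-fold. Calcium handling genes were higher in 15 of 22 tested at P60 and in 7 of 22 at P1 (13 and 4 by DESeq2). Over all tested genes 15% were higher at P60 and 8.70% at P1. Of the calcium handling genes 3 were lower at P60 and none at P1, beside 11.4% and 6.96% of all tested genes. Mustn1 exceeded pericytes at both ages (2.62 ± 0.20 and 3.32 ± 0.21), as did the neurotrophin Ntf3 (5.98 ± 0.72 and 4.30 ± 0.43) and the Notch effector Hey2 (3.42 ± 0.47 and 2.90 ± 0.44).

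Genes lower in VSMC than in pericytes were of other kinds. At P1 they included the ferroxidase Cp (ratio 62.1, 11.0 to 2465), P2ry14 (-3.67 ± 0.29), the plasminogen activator Plat (-3.47 ± 0.30), the collectin Colec12 (-3.33 ± 0.48) and the chondrogenic factor Sox9 (-3.25 ± 0.55). The summed Schwann list stood at 2838, 1039 and 557 CPM in P1 pericytes and at 323, 284 and 342 CPM in P1 VSMC. The summed fibroblast list stood at 2527, 2970 and 4617 against 1586, 2490 and 2184 CPM. The part of RNA from such cells in the P1 differences was not tested. The collagen VI chain Col6a1 was at 56.1, 122 and 116 CPM in VSMC and 487, 391 and 471 CPM in pericytes at P1 and at 57.4, 67.0 and 49.7 and 321, 259 and 363 CPM at P60, lower in VSMC in every library (-2.09 ± 0.19 and -2.18 ± 0.20). The angiotensin receptor Agtr1a was likewise lower at both ages (-2.16 ± 0.23 and -3.03 ± 0.20), as were Steap4 (-3.07 ± 0.27 and -3.44 ± 0.20) and Vtn (-2.75 ± 0.21 and -2.24 ± 0.18) of the pericyte list. With the pericyte gate without the further exclusions Steap4 at P1 (-1.68, adjusted p = 0.068) and Vtn at both ages (-1.18, 0.058, and -0.72, 0.1) were not called by edgeR. At P60 the steroid enzyme Hsd11b1 (ratio 57.7, 15 to 493), Ntm (-4.45 ± 0.32), Dapk2 (-4.24 ± 0.80), Enpp2 (-3.84 ± 0.29), Chst1 (-3.83 ± 0.61) and the adrenergic receptor Adra2a (-3.79 ± 0.32) were lower in VSMC. Plvap (-4.71 ± 0.49), Gpihbp1 (-4.27 ± 0.59) and Emcn (-4.14 ± 0.39) were lower as well, and these are endothelial genes, whose summed marker list was at 176, 342 and 729.9 CPM in P60 pericytes and at 39.8, 48.5 and 25.7 CPM in VSMC.

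Whether VSMC and pericytes changed differently with age was tested by the class-by-age term of the same fit. It called 464 of 5964 genes (7.78%), 281 with the higher change in VSMC (4.71%) and 183 with the lower (3.07%), or 165 and 343 with total-count scaling, which moved the median of all genes by -0.23. List counts for this term are to be read beside these shares. Smtn was alike in both classes at P1, with 112, 88.1 and 63.8 CPM in VSMC and 86.6, 77.8 and 114 CPM in pericytes, and apart at P60, with 285, 312 and 359 and 60.2, 28.8 and 47.0 CPM (difference of log2 changes 3.18 ± 0.34 (SE), adjusted p = 1.7e-09). Foxc1 crossed over, being lower in VSMC at P1 (9.36, 9.79 and 18.8 against 44.0, 28.2 and 33.7 CPM) and higher at P60 (83.9, 80.8 and 182 against 25.1, 7.19 and 21.3 CPM, 4.37 ± 0.56 (SE), adjusted p = 1.1e-07). Pdlim3 (2.33 ± 0.47), Casq2 (2.76 ± 0.53) and the sphingosine receptor S1pr3 (3.16 ± 0.38) had the higher change in VSMC. The call of Casq2 was lost with gates set after thinning (0.44, adjusted p = 0.68) and with the pericyte gate without the further exclusions (0.94, 0.084).

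Other genes drew the classes together. Npy1r was 136, 83.2 and 105 CPM in VSMC and 7.34, 20.1 and 13.7 CPM in pericytes at P1, but 292, 293 and 486 and 241, 230.2 and 469.5 CPM at P60 (-2.51 ± 0.33 (SE), adjusted p = 2.4e-07). Tagln (-0.97 ± 0.12) and Lmod1 (leiomodin, -1.77 ± 0.25) also had the higher change in pericytes. Free RNA itself was not measured. Immune cells with a Tagln UMI after thinning went from 0.215% at P1 to 5.12% at P60. The part of RNA from other cells in the pericyte values was not tested. Bst2, which fell in VSMC, stood at 126, 161 and 135 CPM in P1 and 266, 223 and 201 CPM in P60 pericytes (-2.34 ± 0.26 (SE), adjusted p = 3.6e-09), whose own change was not tested. Eln fell in VSMC, while in pericytes the ages overlapped (60.2, 60.4 and 112 CPM at P1 and 45.1, 115 and 85.4 CPM at P60, -2.18 ± 0.43 (SE), adjusted p = 0.01). This call was lost without P1 replicate 2 (-2.10, adjusted p = 0.051) or P60 replicate 1 (-2.21, 0.062) and with the pericyte gate without the further exclusions (-0.20, 0.9). It was also lost without cells above 10% mitochondrial UMIs (-2.94, adjusted p = 0.13, edgeR) and with the replicate number as a block (-2.27, 0.074). The contractile list as a whole had 8 genes with the higher and 5 with the lower change in VSMC of 35 tested, and 5 and 7 with total-count scaling, so that its balance depended on the scaling.

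Immediate early genes differed between the classes too, with 14 of 24 tested members having the higher change in VSMC and 1 the lower (median 1.14; 13 and 1 with total-count scaling). Atf3 was 37.4, 53.8 and 86.3 CPM in VSMC and 109, 57.7 and 55.0 CPM in pericytes at P1, and 379.9, 402 and 857 and 15, 28.8 and 55.5 CPM at P60 (4.47 ± 0.38 (SE), adjusted p = 3.5e-10). The P60 VSMC were therefore above the pericytes of the same suspensions, which had lower mitochondrial shares, and whether digestion acted unequally on the classes was not tested. The metallothioneins Mt1 (2.60 ± 0.28) and Mt2 (2.28 ± 0.38), metal-binding stress proteins, had the higher change in VSMC too. Both were lower in VSMC than in pericytes at P1 (-1.58 ± 0.20 and -2.54 ± 0.25), and at P60 Mt1 was higher (1.03 ± 0.20). The P60 call of Mt1 was lost with equal cells per library (0.88, adjusted p = 0.12) and with gates set after thinning (0.74, 0.09).

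**Figure D5:**
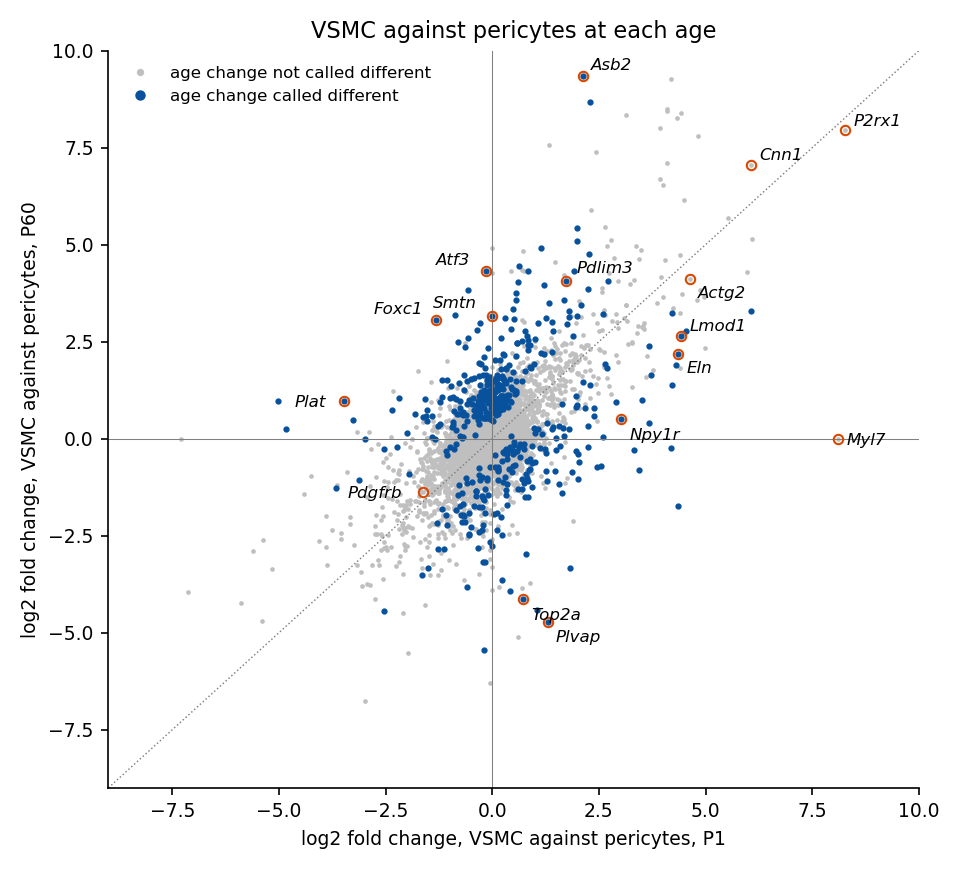
Log2 fold change of VSMC over pericytes at P1 (x axis) and P60 (y axis), 1 point per gene; blue points were called for a different age change. Genes above the diagonal, such as Smtn, Foxc1 and Atf3, gained in VSMC relative to pericytes and those below it, such as Npy1r, Lmod1 and Eln, lost; positions of genes at 0 UMIs in a class (Asb2, P2rx1, Myl7) depend on the prior count of the fit.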

How the data were processed

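Dissociated sciatic nerve cells of 3 P1 and 3 P60 samples had been sequenced with 10x Chromium 3' version 2 chemistry. The authors made the deposited raw UMI counts per gene and barcode with Cell Ranger 2.0.2 and, per the labels, build GRCm38.p5, from 3 independent biological samples per age. Counts of 41605 genes were read as deposited, without doublet calling, which the upper limit of 5000 genes only partly replaces. Raw UMIs of the gated cells were summed per library, genes with low counts were removed by filterByExpr, and the sums were tested with edgeR 4.0.16 (R 4.3.3; TMM scaling, robust quasi-likelihood test, Benjamini-Hochberg adjusted p below 0.05). The ages were compared over the 6 VSMC sums and VSMC with pericytes over 12 sums with the library as a block. An adjusted p printed beside a gene is from these edgeR fits. Shares of cells were compared by exact 2-sided permutation tests over libraries (scipy 1.17.1). For shares of cells with a UMI each cell was thinned to 1500 UMIs, and 2 shallower P60 VSMC and 3 shallower P60 pericytes were left out. Intervals and floors (3 UMIs over a group) cover counting error only. A gene at 0 UMIs in a group is given as a lower bound and one at 1 to 3 UMIs as a ratio with its exact 95% interval. The fits were tested on simulated counts.

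The members, the 18 gene lists and the tests were chosen with earlier results of these data known. Named genes were the 12 with the largest change each way between the ages, the 10 each way between the classes and the 6 each way for the class-by-age term, among called genes above 50 CPM, and in each list the 6 highest and the 4 most changed, beside the genes of the gates. Agtr1a, Col6a1, Des, Ednra, Filip1l, Flna, Ier2, Itpr1, Lamb2, Ldha, Mki67, Mylk, Myocd, Pdlim7, Ppp1r12b, Tgfb3, Tpm4 and Vcl fall outside that rule and were chosen after their values were seen. Some genes that the rule would name are not reported here. Gene coordinates are from GENCODE M21, which held 99.6% of the gene IDs, and promoters from RefSeq (GRCm38.p6). Alternatives covered scaling, DESeq2 1.42.0, filters, gates, thinning, equal cell numbers and each library left out. Leaving out cells with any UMI of Ptprc, Cd68, Lyz2, C1qa, Tyrobp, Fcer1g or Cd74 was added after seeing the data.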

Additional observations from a re-analysis of the deposited data

Results flagged for a closer look

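For 12 genes the change with age differed most between VSMC and pericytes by the class-by-age term of edgeR's fit (values are the age change in VSMC minus that in pericytes, on the log2 scale). The higher change was in VSMC for Atf3 (4.47), Plat (4.45) and Rasd1 (4.39). Plat, the tissue plasminogen activator, stood in pericytes at 214, 223 and 245 CPM at P1 and 10.0, 25.2 and 17.1 CPM at P60, while in VSMC it stood at 9.36, 34.2 and 15 and 17.7, 30.02 and 36.0 CPM. Rasd1, a small G protein induced by glucocorticoids, was at 32.7, 19.6 and 78.8 CPM in VSMC at P1 and 663, 332 and 509 CPM at P60, against 80.7, 56.4 and 77.5 and 20.1, 14.4 and 93.9 CPM in pericytes. Asb2 (7.23), Lrrc10b (6.38) and Sfrp5 (5.09) had a group at 0 UMIs, so the fitted value depends on the prior count. Asb2 was at 14, 9.79 and 7.51 CPM in VSMC at P1 and 183, 148 and 139.6 CPM at P60, and at 1.47, 0 and 5.0 and then 0 CPM in pericytes. Its call was lost without P1 replicate 3 (5.59, adjusted p = 0.3), that of Lrrc10b without P1 replicate 2 or 3 or any P60 replicate (5.60 to 6.80, adjusted p 0.063 to 0.31), and that of Sfrp5 without any P1 replicate or P60 replicate 1 (4.86 to 5.36, adjusted p 0.056 to 0.17).

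The lower change was in VSMC for Plvap (-6.01), Prc1 (-5.44), H2-M9 (-5.16), Top2a (-4.85), Gstt1 (-4.25) and Birc5 (-3.87). Plvap, an endothelial gene of fenestrae, was at 4.68, 4.89 and 3.75 and 6.63, 2.31 and 3.43 CPM in VSMC and at 4.40, 1.34 and 0 and 110.3, 89.9 and 175 CPM in pericytes, whose summed endothelial markers were higher in the same P60 libraries. Gstt1, a glutathione transferase, stood at 4.40, 1.34 and 7.50 and 60.2, 97.1 and 85.4 CPM in pericytes and overlapped between the ages in VSMC (37.4, 78.3 and 33.8 and 17.7, 64.7 and 33.4 CPM). The mitotic genes Prc1 and Top2a stood at 140.4, 3.6 and 0 and 110.3, 3.6 and 0 CPM in P60 pericytes, where replicate 1 held nearly all, and at 2.21, 0 and 0.857 and 2.21, 0 and 0.857 CPM in P60 VSMC. The summed immune markers of P60 pericytes were highest in that library as well (527, 54.0 and 98.2 CPM), and their part was not tested. Without P60 replicate 1 the values of Prc1, Top2a and Birc5 were -2.0, -1.68 and -1.84 (adjusted p = 0.82, 0.8 and 0.73). The calls of H2-M9 and Plvap were lost without P1 replicate 3 (-4.77 and -5.49, adjusted p = 0.47 and 0.055), that of Prc1 without P60 replicate 2 (0.12), and that of Birc5 without P1 replicate 2 or 3 (0.13 and 0.053).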

How the results depend on the processing

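Between the ages 1336 genes were called, 780 without VSMC that held 3 or more pericyte-gene UMIs, 853 with equal cells per library, and 981 to 1432 with 1 library left out. DESeq2 called 460 genes between VSMC and pericytes at P1 (934 by edgeR), 866 at P60 (1571) and 174 for the class-by-age term (464). The pericyte gate without the exclusions, which lets in more cells, gave 2541, 3615 and 1332. Leaving out 1 library gave 642 to 1009 at P1, 1143 to 1667 at P60 and 311 to 433 for the class-by-age term. Without cells with immune-gene UMIs the 4 counts were 1096, 794, 1125 and 333. The replicate numbers did not pair the samples (correlations of deviations from the group means 0.00824, 0.0586 and 0.0758 for equal numbers, across genes). With the replicate number as a block (replicate block), 1509 genes were called between the ages and 297 for the class-by-age term, and the shares gave p = 0.25 and 0.5 in the exact paired test.

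The difference in the mural share stayed between 35.9 and 51.5 percentage points in every alternative. The shares at each age moved more, to means of 7.72% at P1 and 43.7% at P60 with the pericyte gate without exclusions. That of VSMC with a Mki67 or Top2a UMI was -7.51 points, -15.8 without thinning, 0 without VSMC rich in pericyte genes, and -11.3 to -4.29 with 1 library left out.

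For the 172 gene values named in the text, 3062 values under alternatives were computed. An alternative that gave a gene no value is not counted. For the age change Srf had a value under 9 alternatives, Kcnma1 and H2-Aa under 10 and H2-Ab1 under 11, against 18 for Myl6. Of the 3062 values 2949 kept their direction and side of the threshold, 107 lost the call, 3 gained it and 3 turned direction. The last were for the class-by-age term of Birc5 with Dcn under 3 UMIs (0.74) and without cells with immune-gene UMIs (0.76), and of Top2a without the latter cells (0.58). Without those cells the class-by-age call of Tagln (-0.80, adjusted p = 0.19) and the P60 excess of Actg2 (3.37, 0.077) were also lost. With the pericyte gate without exclusions the class-by-age term of Gstt1 was not called (-0.76). Total-count scaling ended the age calls of Notch3, Pdgfrb, H2-Aa and H2-Ab1, and equal cells per library those of Fabp4, Pdgfrb and Pdlim7. Retnla was not called without the 5% of barcodes with most UMIs (9.07, 0.075). In P1 VSMC 3 UMIs stand for 14, 14.7 and 11.3 CPM in replicates 1 to 3. A gene under about 10 CPM there thus rests on fewer than 3 UMIs per library. The cause of these changes was not tested.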

Other observations

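Energy and lipid genes of VSMC were more often higher than lower at P60, beside 15.6% higher and 13.5% lower over all tested genes. Of 34 tested genes 16 were higher, 3 were lower and 15 were not called, with a median log2 fold change of 0.68 (edgeR; 15 higher and 3 lower with total-count scaling). Fabp4, a fatty acid-binding protein of capillary endothelium and fat cells, was at 351, 396 and 274 CPM at P1 and 1475, 1383 and 786 CPM at P60 (1.95 ± 0.20), while its relative Fabp5 fell. Cox4i2, the respiratory chain subunit of oxygen-sensing cells, was at 122, 127 and 191 and 517, 409 and 263 CPM (1.52 ± 0.23). Of the lactate dehydrogenase subunits, Ldhb rose from 70.2, 29.4 and 41.3 to 168, 187 and 127 CPM (1.89 ± 0.29) and Ldha fell from 468, 519 and 492 to 261, 296 and 185 CPM (-0.88 ± 0.17). The creatine kinase Ckb stood at 402, 391 and 360.3 and then 1018, 879.7 and 883 CPM (1.41 ± 0.14). In Fabp4, Cox4i2, Ldhb, Ldha and Ckb no library of one age reached those of the other age. The part of RNA from endothelial or fat cells in the Fabp4 levels was not tested.

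Skeletal muscle transcripts, summed over a list, were at a low level in VSMC but above that of pericytes. The summed list stood at 122, 83.2 and 97.6 CPM at P1 and 59.6, 76.2 and 41.1 CPM at P60, with Myh3 at 0 at P60, against 1.47, 2.68 and 3.75 CPM and 20.1, 32.4 and 17.1 CPM in pericytes. Its one tested member, the troponin Tnnt3, was at 32.7, 39.1 and 45 CPM in P1 VSMC and 0, 2.68 and 2.5 CPM in P1 pericytes (4.36 ± 0.85 (SE), adjusted p = 1.2e-04, edgeR). In P60 VSMC it was at 2.21, 0 and 1.71 CPM, so that the P1 level was higher in a ratio of 27.0 (exact 95% interval 8.31 to 139, adjusted p = 8.3e-05, edgeR). At P60 the difference of Tnnt3 between VSMC and pericytes pointed the other way and was not called (log2 fold change -1.73). In VSMC the erythroid list stayed at or below 22.5 CPM in every library.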
